A study of Drosophila melanogaster with 5 samples.

Results

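Potassium channels return the membrane potential of a neuron to rest after a spike and set how often it fires. The 7 genes described here encode the fly channels of the ether-a-go-go family (eag, Elk and sei), KCNQ, and the channels of the BK, SK and SLO2 types (slo, SK and SLO2), which in many animals open in response to calcium or sodium inside the cell. They were chosen by symbol, and all 7 were found among the 16463 genes present in both deposited expression tables. SLO2 is listed under the symbol CG42732. All 7 had values above 0 in both groups and a mean normalized count of at least 10, as did 11729 genes in all, which are called the tested genes below.

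The data are RNA-seq of the central nervous system (CNS) of Drosophila larvae 84 h after egg laying, from 3 control and 2 knockdown libraries. In the knockdown libraries RNAi was directed against the IP3 receptor (IP3R), the channel that releases calcium from the endoplasmic reticulum. Control larvae carried 1 copy each of UAS-dsitpr (the RNAi construct) and UAS-dicer and no GAL4 driver. Knockdown larvae carried both constructs and, according to the labels, ElavC155GAL4, a driver active in neurons throughout the nervous system, so that a driver and Dicer-2 expression also separate the groups. The study names the same driver where it shows these data, while its methods name one for a subset of glutamatergic neurons. Each library pooled about 15 CNS, and the question addressed here is how the mRNAs of these 7 channels differ between the knockdown and control groups.

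The tables hold 1 value per gene and group and no value per library. The first gives FPKM, fragments per kilobase of transcript scaled to the depth of sequencing, which can be compared between genes. The second gives mean normalized counts, that is reads per gene divided by a size factor of the library, which can be compared between groups for 1 gene. The control libraries of the 7 genes could be narrowed to a few possible sets of reads for eag, KCNQ and SK and to many for the others, so no spread is given for them and no test was made. An exact one-sided permutation test of 3 libraries against 2 could not go below p = 0.1. Lower or higher below means lower or higher than control by at least 25% in both tables. For the knockdown group, the digits of the deposited means allowed the whole reads of each of the 2 libraries to be recovered. The recovered reads in genes summed to 13461120 in the deeper and 10352160 in the shallower knockdown library. Which of them is replicate 1 is not known.

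The IP3R gene, listed as Itp-r83A, was at 24.7 FPKM in control and 15.0 FPKM in knockdown, 60.6% of control. Its normalized counts in the deeper and shallower knockdown libraries were 2032 and 1995, against a control mean of 3063. The log2 ratios were -0.72 by FPKM and -0.61 by normalized counts. With 10331 bases of exons, Itp-r83A belongs to the 10% of tested genes with the longest exons. In that group 46.5% were lower, and the median log2 ratio was -0.42 in both tables. The part of exon length in the Itp-r83A ratio was not tested. The eye pigment gene w, which marks many fly transgenes, was 8.63-fold higher by FPKM in knockdown, and Dcr-2 3.09-fold higher. Markers of neurons ranged from 43.6 to 157 FPKM in control, and those of glia from 51.4 to 181 FPKM. Of 10 neuron markers 5 were lower in knockdown and none higher, with summed FPKM of 777 and 622. None of 7 glia markers was lower or higher, with sums of 741 and 768 FPKM. Over all tested genes 15.2% were lower and 11.7% higher. The median exon length was 6049.5 bases for the neuron markers and 2996 for the glia markers. These lists thus also differ in length, and its part in their ratios was not tested. The group values of genes of other tissues differed as well. For the salivary gland markers this did not hold for every control library, as given below. All 9 muscle markers were lower (sums of 923 and 571 FPKM), as were 4 of 5 tested fat body markers (sums over 6 markers of 393 and 169 FPKM), 3 of 5 hemocyte markers (209 and 127 FPKM) and 7 of 8 tested salivary gland markers (sums over 10 markers of 786 and 15.6 FPKM, with Sgs5 and Eig71Ee at 0 in knockdown). The part of these tissues in the ratios of the channel genes was not tested. In pooled CNS, fewer neurons of a type and less mRNA per neuron cannot be told apart.

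One control library stood apart. Among genes with a control mean between 10 and 200, where the control reads of nearly every gene could also be recovered, the summed normalized count of 6 salivary gland markers was 954 and 866 in the 2 deeper control libraries but 48.4 in the shallowest, beside 41.8 and 63.3 in the knockdown libraries. For the 65 such genes in the 10% of genes with the longest exons, the median ratio to the control mean was 1.10 and 1.08 in the deeper control libraries and 0.779 in the shallowest, beside 0.889 and 0.799 in the knockdown libraries. For the other 2887 genes it was 1.03, 1.03 and 0.921 in control and 1.06 and 0.905 in knockdown. The shallowest control library thus lay nearer to the knockdown libraries than to the other controls in both measures. Its label was kept.

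In the control CNS the 7 channel genes spanned a 4.19-fold range of FPKM. sei was highest at 35.9 FPKM, above 46.4% of tested genes, and eag lowest at 8.57 FPKM, above 22.7%. The other 5 lay between 15.5 and 24.7 FPKM, in the order slo, SLO2, SK, KCNQ and Elk. In knockdown the range was 8.95-fold. sei was again first at 39.7 FPKM and eag last at 4.43 FPKM, whereas slo was in place 2 in control and place 4 in knockdown, and KCNQ in place 5 and place 2. Summed over the 7 genes, FPKM was 135 in control and 103 in knockdown. sei made up 26.5% of that sum in control and 38.4% in knockdown, and slo 18.2% and 10.98%.

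The middle of this order depends on how length is counted. Per kilobase of annotated exons, the mean normalized count in control was 437 for sei, 191 for Elk, 167 for KCNQ, 156 for slo, 152 for SLO2, 73.5 for SK and 59.9 for eag. Elk, next to last by FPKM, was thus in place 2 on this scale, while sei and eag kept the ends. The order per kilobase was the same in both knockdown libraries, with 532 and 475 for sei, 157 and 137 for KCNQ, 126 and 128 for Elk, 85.7 and 87.2 for SLO2, 59.2 and 63.7 for slo, 49.4 and 43.0 for SK, and 26.9 and 29.6 for eag. No 2 neighbours in that knockdown order overlapped between libraries. For the control order the spread is not known.

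Of the 7 genes, 5 were lower in knockdown (eag, Elk, slo, SK and SLO2), none was higher, and sei and KCNQ passed neither rule. Among all tested genes 15.2% were lower and 11.7% higher. The median log2 ratio of the 7 was -0.53 by FPKM and -0.67 by normalized counts, beside 0.03 in both tables over all tested genes. The range ran from -1.12 to 0.14 by FPKM and from -1.34 to 0.20 by normalized counts.

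**Figure D1:**
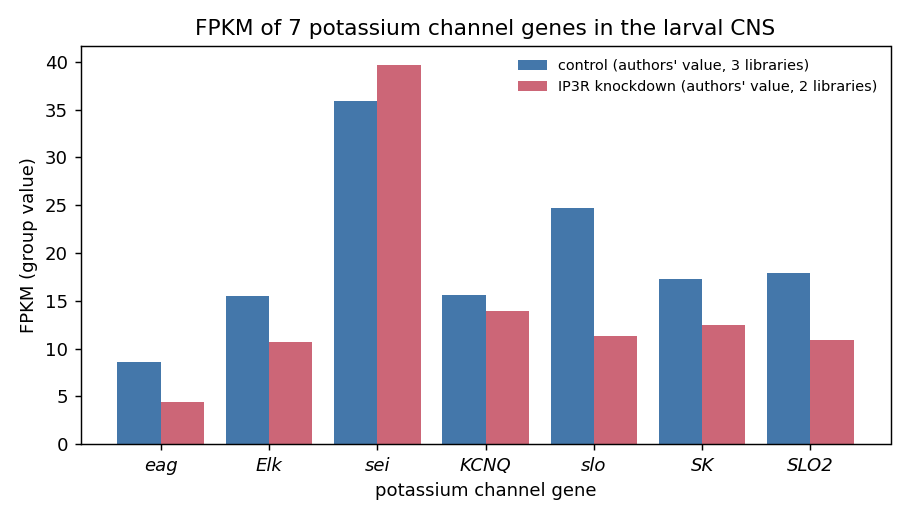
FPKM of the 7 potassium channel genes (y axis, from 0), with the authors' group value for control in blue and for IP3R knockdown in red, and no error because the table gives 1 value per group. The red bar is shorter for 6 genes, most so for slo (24.7 and 11.4 FPKM), and taller for sei (35.9 and 39.7 FPKM).

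The ether-a-go-go family holds voltage-gated channels of 3 subtypes, each with 1 gene in the fly. eag is the founding member, named for the leg shaking of mutant flies under ether, and lies on the X chromosome at 14955477 to 15009989 of the plus strand (BDGP6, the dm6 genome). Its FPKM was 8.57 in control and 4.43 in knockdown, 51.7% of control. The normalized count was 637 as the control mean, and 286 and 314 in the deeper and shallower knockdown libraries. Both knockdown libraries were thus below the control mean by more than the gap between them, which was 0.13 on the log2 scale. The log2 ratio was -0.95 by FPKM and -1.08 by normalized counts, and 7.32% and 5.49% of tested genes had a lower ratio.

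For eag the deposited control mean could be met by 2 sets of whole reads. In the first the normalized counts of the 3 control libraries were 811, 657 and 443, all above both knockdown libraries. In the second they were 756, 998 and 156, of which the shallowest library, the one that stood apart, was below both. Which set is the true one cannot be told from the table. Without the shallowest control library the log2 ratio of eag would be -1.29 or -1.55, farther from 0 than with it.

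Elk encodes the Elk subtype and lies on 2R at 17873939 to 17926695, on the plus strand. It was at 15.5 FPKM in control and 10.7 FPKM in knockdown, 69.1% of control. The control mean was 1022 normalized counts, and the knockdown libraries had 674 and 685. These differed from each other by 0.02 on the log2 scale, while the log2 ratio to control was -0.53 by FPKM and -0.59 by normalized counts.

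sei (seizure) encodes the Erg subtype, the relative of human HERG, and its mutants are paralysed by heat. It is the smallest of the 7 loci, on 2R at 24047411 to 24053035 of the plus strand, with 3278 bases of exons. It was at 35.9 FPKM in control and 39.7 FPKM in knockdown, a log2 ratio of 0.14. Its normalized counts were 1433 in the control mean and 1743 and 1558 in the knockdown libraries, so both were above the control mean, at 122% and 109% of it. The gap between the knockdown libraries, 0.16 on the log2 scale, was close to the log2 ratio of 0.20 itself. sei also shares 478 exon bases with gammaSnap1 and ppk29 on the other strand, and its counts are uncertain to that extent, since the sources used here do not say whether counting used strand. The log2 ratios by normalized counts were 0.10 for gammaSnap1 and 0.57 for ppk29.

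The 3 family members therefore did not move together. Summed FPKM of eag, Elk and sei was 59.98 in control and 54.8 in knockdown, 91.4% of control, because sei held most of the sum.

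KCNQ encodes the fly's only KCNQ channel, a slowly activating channel whose mammalian relatives carry the M current. It lies on 2R at 10145897 to 10192394 of the minus strand. Its FPKM was 15.6 in control and 13.9 in knockdown, 89.2% of control. The control mean was 647 normalized counts, and the knockdown libraries had 608 and 530, or 94.0% and 81.9% of it. The log2 gap between these libraries, 0.20, was about as large as the log2 ratio of -0.19. KCNQ shares 1063 exon bases with CG18011 and asRNA:CR45133 on the other strand, and the antisense RNA had log2 ratios of -0.91 by FPKM and -0.86 by normalized counts. Reads of KCNQ and of that RNA may not have been told apart in counting.

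slo (slowpoke) encodes the BK channel, which opens with calcium and depolarization together and speeds the end of the spike. It lies on 3R at 24662491 to 24711595 of the plus strand and has 23 annotated transcripts, the most of the 7. It had the lowest ratio of the 7 in both tables. FPKM was 24.7 in control and 11.4 in knockdown, 46.1% of control. The control mean was 1585 normalized counts, and the knockdown libraries had 601 and 646, which are 37.95% and 40.8% of it. These rest on 691 and 551 recovered reads. The log2 ratio was -1.12 by FPKM and -1.34 by normalized counts, and 5.89% and 3.98% of tested genes had a lower ratio. The gap between the tables, -0.23, was at the edge of what tested genes showed, whose 5th and 95th percentiles were -0.23 and 0.21.

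SK encodes the small-conductance channel, which calcium opens through bound calmodulin and which follows bursts of spikes with a slow hyperpolarization. It lies on the X chromosome at 5340236 to 5405138 of the plus strand. It was at 17.2 FPKM in control and 12.4 FPKM in knockdown, 72.2% of control, the value nearest to the limit of 0.75 among the genes that were lower. The control mean was 801 normalized counts, with 538 and 468 in the knockdown libraries, 67.2% and 58.4% of it. The knockdown libraries were 0.20 apart on the log2 scale, the widest gap of the 7, and the log2 ratio was -0.47 by FPKM and -0.67 by normalized counts. The control mean of SK could be met by 4 sets of whole reads. In 2 of them all 3 control libraries were above both knockdown libraries, and without the shallowest control library the log2 ratio would lie between -1.20 and -0.58.

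SLO2 is the fly relative of the mammalian sodium-activated channels Slack and Slick. It spans 94.8 kb on 2R, at 10322195 to 10416996 of the minus strand, the longest locus of the 7. FPKM was 17.9 in control and 10.9 in knockdown, 60.7% of control. The control mean was 1525 normalized counts, and the knockdown libraries had 860 and 875, within 0.03 of each other on the log2 scale. The log2 ratio was -0.72 by FPKM and -0.81 by normalized counts. slo and SLO2, both of the Slo family, had a summed FPKM of 42.6 in control and 22.3 in knockdown, 52.2% of control.

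**Figure D2:**
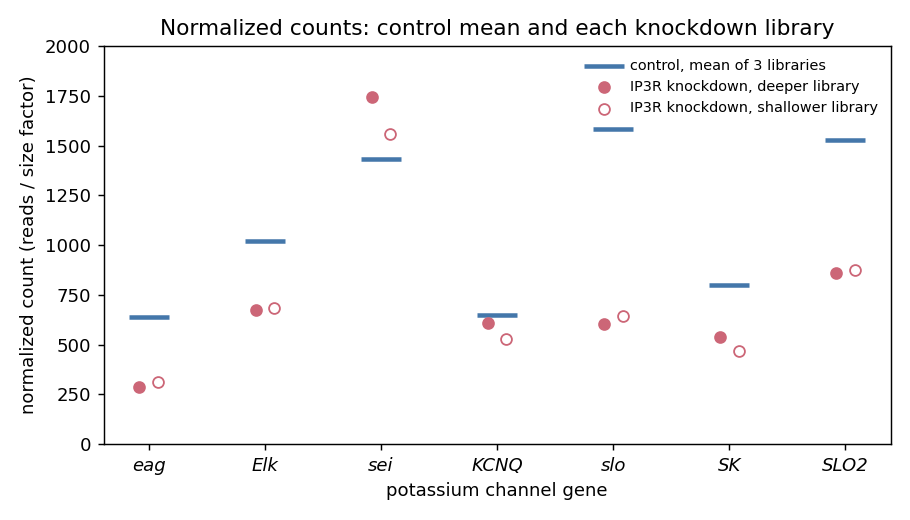
Normalized counts (reads divided by the size factor, y axis from 0) of the 7 genes, with the control mean of 3 libraries as a blue line and the deeper and shallower knockdown libraries as filled and open red circles. Both circles lie under 0.75 of the blue line for eag, Elk, slo, SK and SLO2, under it by less for KCNQ, and above it for sei.

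Taking the recovered libraries one at a time, both knockdown libraries were at or under 0.75 of the control mean for the same 5 genes, as they were for 12.4% of 11725 tested genes. The log2 gap between the knockdown libraries ran from 0.02 to 0.20 over the 7 genes, beside a median of 0.14 and a 95th percentile of 0.64 over 8571 genes with a mean normalized count of at least 200. The 7 genes thus varied between the knockdown libraries about as much as genes of their level did.

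All 7 genes are longer than the median tested gene, and the genes with the longest exons had the lowest median ratios among the tested genes. The tested genes had a median of 1898 bases of exons, and the 7 between 3278 (sei) and 10891 (SK). In the 10% of genes with the longest exons, from 5502 bases up, 46.5% were lower and the median log2 ratio was -0.42 in both tables. eag, slo, SK and SLO2, each with 10039 bases or more, belong to that group, and all 4 were lower. Elk, with 5351 bases, and KCNQ, with 3875, belong to the next 10% by length, where 14.1% were lower and the medians were -0.18 by FPKM and -0.17 by normalized counts. sei belongs to the 10% below it, where 7.24% were lower, the smallest share of the 10 groups, and the medians were -0.05 and -0.04. The share was not lowest in short genes, since 18.4% were lower in the 10% with the shortest exons, where the medians were 0.14 and 0.10.

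Set against genes of like exon length, the members separated. slo remained lowest, with 4.91% of its length group below it by FPKM and 1.64% by normalized counts, and eag followed with 9.04% and 5.34%. Elk had 10.3% and 7.50% of its length group below it. SLO2 had 21.1% and 13.9%, and SK 43.1% and 22.7%, so SK was near the middle of genes of its length by FPKM. KCNQ was in the middle of its length group, with 53.2% and 47.2% below it, and sei near the top of its own, with 84.7% and 88.8%. After the median of the length group was subtracted in each table, eag and slo were still lower by 25% and the other 5 genes were not. Of the tested genes with an exon length, 11.8% were lower and 10.5% higher by this measure. The log2 ratios left were -0.53 and -0.66 for eag and -0.70 and -0.92 for slo, by FPKM and normalized counts.

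**Figure D3:**
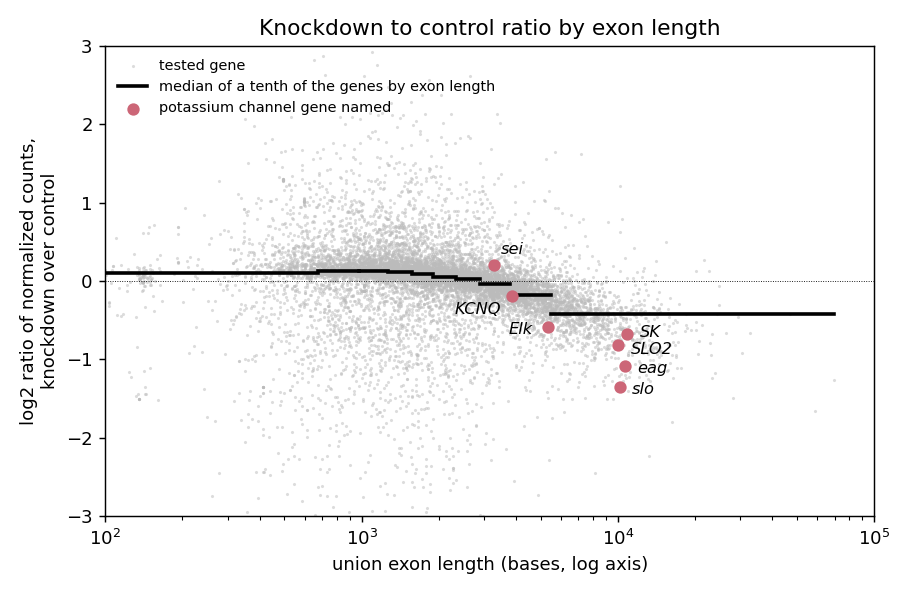
Log2 ratio of mean normalized counts, knockdown over control (y axis), against union exon length in bases (log x axis) for tested genes (grey), with the median of each of 10 groups of genes by length (black lines) and the 7 channel genes (red); 226 tested genes lie outside the axes. The black line falls to -0.42 in the longest group, and below it slo lies at -1.34, eag at -1.08, SLO2 at -0.81 and SK at -0.67.

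Other potassium channel genes were described beside the 7. Of 15, 5 were lower and none higher, beside 15.2% and 11.7% of all tested genes. The median log2 ratios were -0.29 by FPKM and -0.28 by normalized counts. Hk, the beta subunit of the Shaker channel, was at 24.8 FPKM in control and 10.7 in knockdown, with log2 ratios of -1.22 and -1.24, close to those of slo. Shaw and Shab, delayed rectifiers of the Kv3 and Kv2 types, had log2 ratios of -0.71 and -0.68, and -0.53 and -0.75. The 2-pore channel gene galene was lower as well, but its tables were far apart, at -1.22 by FPKM and -0.44 by normalized counts, and its deeper knockdown library was at 87.5% of the control mean. Sh, the Shaker channel itself, was the fifth, at -0.49 and -0.79. Hk, Shab and Sh, with 10725, 11359 and 22801 bases of exons, belong to the longest 10% of genes, where 46.5% were lower. The part of exon length in their ratios was not tested. The inward rectifiers Irk1, Irk2 and Irk3 passed neither rule.

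Genes for proteins that bind or modify these channels made up the next list. Of these 10 genes, 1 was lower and 1 higher, beside 15.2% and 11.7% of all tested genes. The median log2 ratios were 0.04 and 0.08. Slob, which binds the slo channel, was at 30.4 FPKM in control and 21.0 in knockdown, with log2 ratios of -0.53 and -0.54. Slip1, another protein that binds slo, was at 33.0 and 44.3 FPKM, with a log2 ratio of 0.43 in both tables. So slo and Slob were lower while Slip1 was higher. dysc, which regulates the slo channel at the synapse, had log2 ratios of -0.40 and -0.46 and missed the rule by FPKM. Cam, the calmodulin that SK carries, was at 162 FPKM in control and 168 in knockdown.

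Genes that handle calcium and sodium, the ions to which slo, SK and SLO2 respond, made up the last list. Of 15 such genes 11 were lower and none higher, beside 15.2% and 11.7% of all tested genes. The median log2 ratios were -0.60 and -0.63. The median exon length was 9362 bases, so that most belong to the longest 10% of genes, where 46.5% were lower. RyR, the ryanodine receptor, was at 10.5 and 4.49 FPKM, with log2 ratios of -1.22 and -1.24. Ca-alpha1T, the T-type calcium channel, had -0.99 and -1.24, and the sodium channel relative NaCP60E -0.86 and -1.13. para, the main sodium channel, was at 15.7 FPKM in control and 9.82 in knockdown, a log2 ratio of -0.68, but at -1.79 by normalized counts. Stim and olf186-F, the sensor and pore of store-operated calcium entry, passed neither rule, with log2 ratios by FPKM of 0.15 and -0.02. The Itp-r83A target itself is among the 11.

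**Figure D4:**
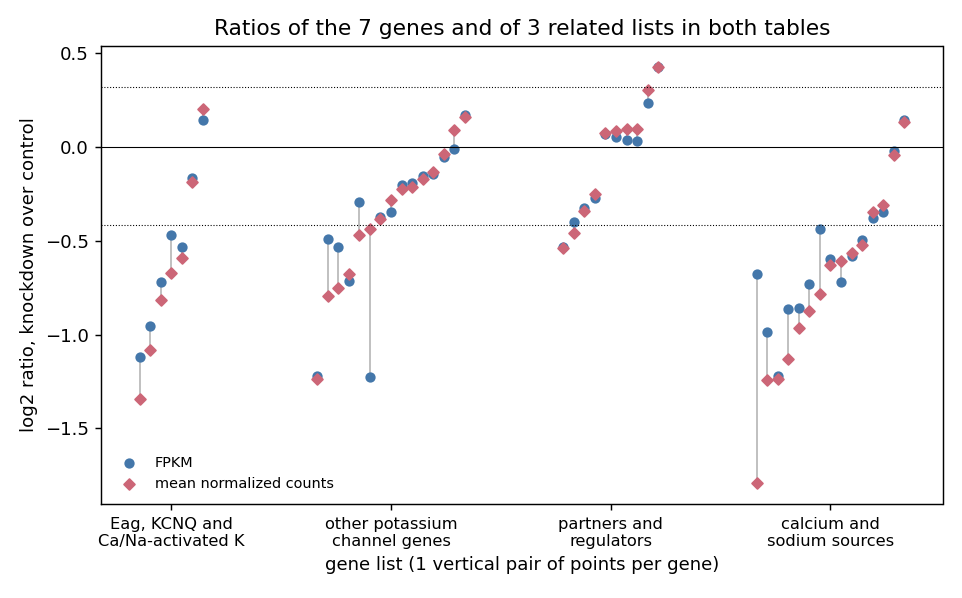
Log2 ratio of knockdown over control by FPKM (blue circles) and by mean normalized counts (red diamonds) for each gene, 1 vertical pair a gene, in the 7 channel genes and the 3 lists, with dotted lines at 25% lower and 25% higher. Most pairs of the calcium and sodium list and 5 of the 7 channel genes lie under the lower line, while those of the partner list lie around 0.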

How the data were processed

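Reads of 3 control and 2 IP3R knockdown libraries were processed by the authors with CASAVA, TopHat2 2.0.11 on dm6, Samtools to remove duplicates, Cuffdiff 2.2.0, GenomicRanges, DESeq and edgeR, as the paper and the submitters' processing notes give them. The deposited Cuffdiff table gives FPKM per group. The deposited DESeq table gives mean normalized counts, a signal and not whole counts, over all libraries and per group. The fold changes, ratios, test statistics, p-values and adjusted p-values in these tables are the authors' own comparisons, as is nearly all of the edgeR table, and none was used. The overall mean equals 3 parts of column A and 2 of column B within 3.6e-06 in every row, which identifies A as control.

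Genes were joined by symbol. Tested genes had values above 0 in both groups of both tables and a mean normalized count of at least 10. Exon length, the union of annotated exons, was read from Ensembl release 115 for 98.9% of them. Whole reads per library were sought that return the deposited means to their last digit, a step chosen after seeing the data. They were unique for 15050 of 15054 knockdown means and for 3536 of 3546 control means from 10 to 200. In simulated data, 99.9% of knockdown and 99.5% of control genes were recovered correctly. Depth in reads is known only for the knockdown libraries, and control libraries are called deeper or shallowest by their size factors. The size factors were 1.12, 1.10 and 0.826 in control and 1.15 and 0.852 in knockdown.

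The 7 genes and all lists were chosen with earlier results of these data known. Named were all 7 genes, up to 4 genes of each list past the rule with the largest mean log2 ratio, Itp-r83A, w and Dcr-2. Sh, dysc, Cam, Irk1, Irk2, Irk3, Stim, olf186-F, Sgs5 and Eig71Ee, and the genes that overlap sei and KCNQ, were named after their values were seen. Alternatives changed the fold rule, the table, the minimum count, a pseudocount and the centring. Python 3.11.15, pandas 2.3.3, NumPy 2.4.6 and matplotlib 3.10.9 were used.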

Additional observations from a re-analysis of the deposited data

How the results depend on the processing

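The counts of lower and higher genes and the log2 ratios of the 7 were recomputed under 10 alternatives, the last 2 of them (each knockdown library alone on normalized counts) chosen after seeing the data. The log2 ratios of eag, Elk, slo, SK and SLO2 were under 0 in all 10, and slo was lower in all 10. Under a 2-fold rule 1 of the 7 genes (slo) was lower, with 629 tested genes lower and 270 higher, and 2 listed genes lower and 0 higher. With ratios centred on the median of genes of like exon length, 2 of the 7 were lower (eag and slo), with 1372 tested genes lower and 1216 higher and 6 listed genes lower and 3 higher, and the median log2 ratio of the 7 was -0.35, beside -0.57 as the mean of both tables. That median was -0.67 by normalized counts alone and -0.77 in the shallower knockdown library alone. With no minimum count 2335 tested genes were higher, and with a minimum of 100, 1188 were lower and 616 higher. The other alternatives left 5 of the 7 lower. Levels, orders, shares, marker sums and length-group percentiles were not recomputed. No control replicate could be left out directly, because the tables hold group means. For all 7 genes, ranges without the shallowest control library are given over the possible sets of reads. The sign of the ratio is the same over all sets for eag and SK only. No paired analysis was possible because the columns carry no replicate numbers and no test was made. Intervals for the ratios need control libraries that the means do not resolve.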

Other observations

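The sets of whole control reads that return the deposited means differ in number between the 7 genes. There were 2 sets for eag, 3 for KCNQ, 4 for SK, 13 for Elk, 34 for sei, 42 for SLO2 and 49 for slo. For KCNQ, none of the 3 sets placed all control libraries above both knockdown libraries, and without the shallowest control library its log2 ratio would lie between -0.58 and 0.01. For sei, whose control mean is below both knockdown libraries, 1 of the 34 sets placed all control libraries below both. All control libraries were above both knockdown libraries in 17 of the 49 sets of slo, 6 of the 42 of SLO2 and 2 of the 13 of Elk. The sets are arithmetic solutions that were not weighed, so counts of sets are not probabilities. Without the shallowest control library the log2 ratio would lie between -1.90 and 0.75 for slo, -1.39 and 0.84 for SLO2, -1.15 and 2.77 for Elk and -0.37 and 4.20 for sei, so for these 4 genes the sets do not fix its sign. The ends of these ranges can rest on control libraries far apart. The value of 0.75 for slo needs normalized counts of 545, 195 and 4015 in the control libraries.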
